A study of Mus musculus with 4 samples.

Results

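Lysophosphatidic acid (LPA) is a lysophospholipid that signals through a family of G protein-coupled receptors, and autotaxin is the secreted enzyme that makes it from lysophosphatidylcholine. The genes described here are the 6 LPA receptor genes (Lpar1 to Lpar6) and Enpp2, which encodes autotaxin. They were taken by gene name from 4 one-color microarrays of mouse colon, where all 7 genes had at least 1 probe among the 22370 genes on the array, with 9 probes in all (2 each for Lpar2 and Lpar6, 1 for each of the others). Each array was hybridized with colon RNA pooled from several male mice of 1 group, 42 weeks old, on a B6.129 background that had been backcrossed to C57BL/6 for 3 generations. The groups were littermate Pla2g3+/+ and Pla2g3-/- mice given saline vehicle or azoxymethane (AOM), a carcinogen that gives rise to colon tumors. AOM was injected intraperitoneally at 10 mg/kg each week for 6 weeks, and colons were removed 28 weeks after the last dose. Pla2g3 encodes group III secreted phospholipase A2, whose products include lysophospholipids. The knockout was in the germline and not confined to a cell type, and the deposited design gives 3 to 5 mice per pool. There was 1 array per group, so the ratio between any pair of arrays had no replicate check and no p-value.

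LPA receptors couple to several classes of G protein and act on cell migration, proliferation and the actin cytoskeleton. Lpar1, Lpar2 and Lpar3 belong to the endothelial differentiation gene family together with the sphingosine 1-phosphate (S1P) receptors, whereas Lpar4, Lpar5 and Lpar6 are closer to the P2Y purinergic receptors. In the gut, LPA receptors are known from epithelial cells, fibroblasts and immune cells, and autotaxin from stromal cells, fat and the high endothelial venules of lymphoid tissue.

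All values rest on short probes, and those behind the results are shown here because each reads only 60 bases of its transcript. Positions follow the array files and refer to mm9, and no exon annotation of the probes was used. The Enpp2 probe lies on chromosome 15 from 54670921 to 54670980 on the minus strand, and its last codon, in capitals, is a stop codon. The Lpar1 probe lies on chromosome 4 from 58499672 to 58499731 on the minus strand. The brighter Lpar2 probe, A_52_P460537, lies on chromosome 8 from 72354818 to 72354877 and the dimmer one, A_55_P1997591, from 72350307 to 72350366, both on the plus strand. The first 30 bases are given for the former and the whole probe for the latter. The Lpar6 probes lie on chromosome 14 from 73639469 to 73639528 (A_51_P234728) and from 73639502 to 73639561 (A_55_P1967069) and share the 27 bases given in capitals, so they are not independent readings of the gene.
Enpp2: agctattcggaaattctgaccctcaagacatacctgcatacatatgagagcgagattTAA
Lpar1: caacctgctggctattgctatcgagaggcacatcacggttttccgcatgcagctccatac
Lpar2, A_52_P460537: cctcacaagtttggaccactaatatgtttt
Lpar2, A_55_P1997591: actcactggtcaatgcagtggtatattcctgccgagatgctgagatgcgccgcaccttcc
Lpar6, shared stretch: GAACTATCTCTCCGGCTCCAACAAAAA
The single probes of Lpar3, Lpar4 and Lpar5 lie on chromosome 3 from 145948720 to 145948780, on chromosome X from 104127529 to 104127588 and on chromosome 6 from 125032395 to 125032454. The Lpar3 range is printed as given and is slightly longer than the 60 bases of its probe. No other probe of the array shared 20 bases with a probe of these genes.

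Before the results, 3 features of the whole arrays need to be given. First, Pla2g3 went against the genotype labels. With vehicle its brightest probe had an intensity of 343 on the Pla2g3+/+ array and 426 on that labeled Pla2g3-/-, whereas after AOM it had 304 and 1632, which after scaling was 1.23-fold and 6.01-fold higher on the arrays labeled Pla2g3-/-. In the same order and direction, probe A_55_P2043039 gave 1.06-fold and 6.66-fold, and probe A_55_P2150851 at least 2.31-fold and 2.76-fold. The last probe was not well above background on the Pla2g3+/+ vehicle array. Whether the probes lie within the deleted part of the gene is not given in the sources used here, and a probe outside it would not check the labels. Groups are therefore named by their labels, and each direction between genotypes follows those labels. Second, marker genes of other cell types differed widely between the pools. The 9 pancreatic acinar cell markers were all over 2-fold higher on the array labeled Pla2g3-/- with vehicle than on the Pla2g3+/+ vehicle array, with a summed scaled signal of 44.4 against 0.385. All 10 smooth muscle markers were over 2-fold lower on the Pla2g3+/+ AOM array than on the Pla2g3+/+ vehicle array, with a summed scaled signal of 31.6 against 519. Last, the AOM arrays were brighter as a whole. The 75th percentile of the spots, which serves below as the unit of signal, was an intensity of 647 (Pla2g3+/+) and 652 (labeled Pla2g3-/-) on the vehicle arrays against 1312 and 1171 on the AOM arrays. Markers of epithelium (8 of 8), mature colonocytes (8 of 8) and goblet cells (7 of 7) were well above background on all 4 arrays, but their levels differed. On the Pla2g3+/+ AOM array 7 of the 8 mature colonocyte markers and all 7 goblet cell markers were over 2-fold lower than with vehicle, as were 2 of the 8 epithelial markers.

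**Figure D1:**
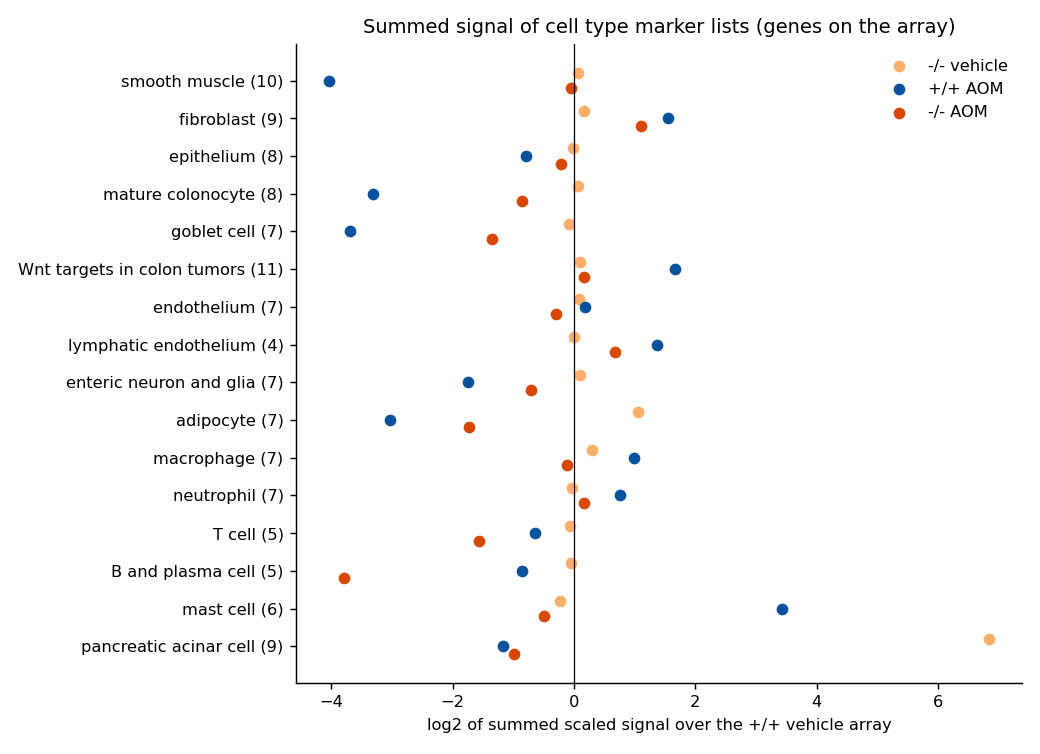
Summed scaled signal of 16 lists of cell type marker genes on 3 arrays, as log2 relative to the Pla2g3+/+ vehicle array (x axis), with the number of genes of each list on the array in parentheses. The smooth muscle list lies at -4.04 on the Pla2g3+/+ AOM array, and the pancreatic acinar list lies at 6.85 on the array labeled Pla2g3-/- with vehicle.

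Of the 7 genes, 5 were well above background on all 4 arrays (Lpar1, Lpar4, Lpar5, Lpar6 and Enpp2), Lpar3 on 3 arrays and Lpar2 on 2. None of the 9 probes was saturated or marked as an outlier. In what follows, a scaled signal is the intensity over that percentile, so that a spot at the percentile has a value of 1. For the 7 genes, levels are compared between arrays for 1 probe at a time and not between genes. The sums of marker lists add scaled signals across genes, so the brightest genes weigh most in them. The error is that given by Feature Extraction for 1 spot, which ranged from 10.0% to 99.7% of the signal over the spots of these probes. It does not cover the spread between mice, pools or hybridizations. For bright spots it was close to 10.0% whatever the probe, so 2 errors there amount to a nearly fixed log2 difference of 0.41. Probes with replicate spots had a median log2 SD between 0.057 and 0.066 within an array.

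**Figure D2:**
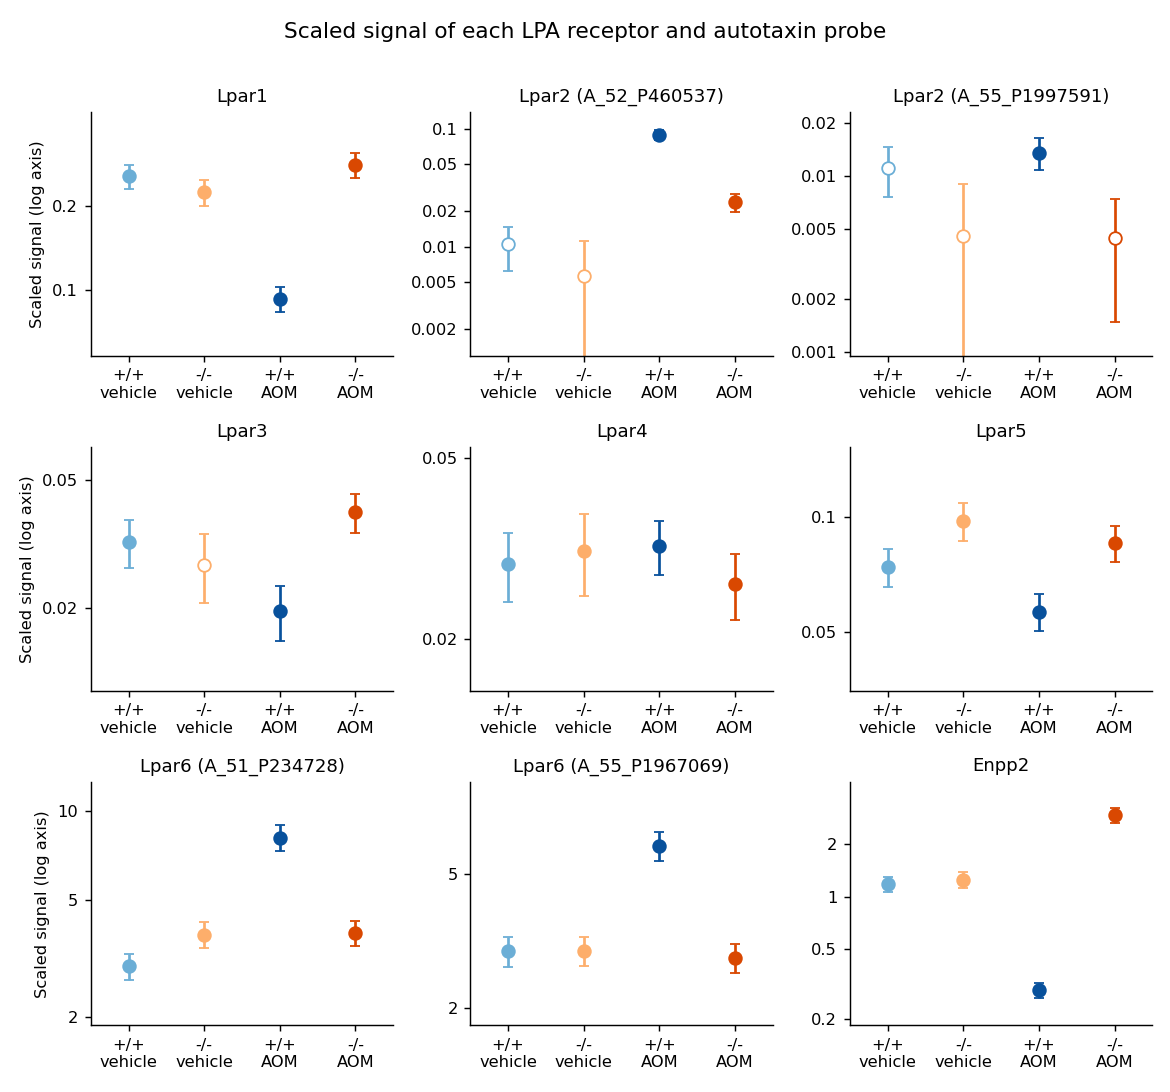
Scaled signal (y axis, log scale) of each of the 9 probes on the 4 arrays, 1 point per array with the error of Feature Extraction as bars, where +/+ and -/- are the labeled Pla2g3 genotypes. Open points were not well above background, and bars that reach the lower edge extend beyond it. Enpp2 and Lpar1 have their lowest point on the Pla2g3+/+ AOM array, whereas Lpar6 and the brighter Lpar2 probe have their highest point there.

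With vehicle, the first question was whether the genotype alone went with a difference in these genes. None of the 6 genes with a value passed 2-fold in either direction between the arrays labeled Pla2g3-/- and Pla2g3+/+, where 3.24% of all 16394 genes with a value did (1.92% higher and 1.32% lower). The log2 ratio of labeled knockout over wild-type was 0.09 for Enpp2, -0.19 for Lpar1, 0.10 for Lpar4, 0.40 for Lpar5 and 0.36 for the brighter Lpar6 probe. The second Lpar6 probe gave 0.00. Each of these lay within 2 errors of 0, with an error of Feature Extraction of 0.20 for the Enpp2 ratio and 0.23 for the Lpar5 ratio. Lpar3 was well above background on the Pla2g3+/+ array alone. As measured it was 1.18-fold lower on the other, a log2 gap of 0.24 that lay within 2 errors (0.86). Lpar2 was not well above background on either array. The median of the 6 log2 ratios was 0.10, against -0.02 over all genes.

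After AOM, the arrays differed far more. Between the array labeled Pla2g3-/- and the Pla2g3+/+ array, 3 of the 7 genes were over 2-fold higher (Enpp2, Lpar1 and Lpar3) and 2 were over 2-fold lower (Lpar2 and Lpar6), where 28.0% of all 17193 genes with a value passed 2-fold (15.1% higher and 12.9% lower). In Pla2g3+/+ colon, AOM over vehicle gave 2 genes higher (Lpar2 and Lpar6) and 2 lower (Enpp2 and Lpar1), against 37.5% of 17276 genes (15.1% higher and 22.4% lower). In the pools labeled Pla2g3-/-, AOM over vehicle gave 1 gene higher (Enpp2) and 0 lower, against 24.7% of 16516 genes (9.68% higher and 15.0% lower). These comparisons share arrays and are not independent of each other. The Pla2g3+/+ AOM array enters the comparisons in which Lpar1, Lpar2 and Lpar6 passed 2-fold, and with scaling neither Lpar1 nor Lpar6 passed it where that array was not used. For Lpar2 the vehicle arrays gave no ratio and AOM over vehicle in the pools labeled Pla2g3-/- gave a bound only, which does not exclude 2-fold. Over the 7 genes the median log2 ratio was 0.59 for genotype after AOM, -0.39 for AOM in Pla2g3+/+ and 0.07 for AOM in the pools labeled Pla2g3-/-, against 0.03, -0.17 and -0.08 over all genes. The 0.07 is itself the lower bound of Lpar2, whose log2 ratio as measured was 2.08, so that median is a bound too.

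**Figure D3:**
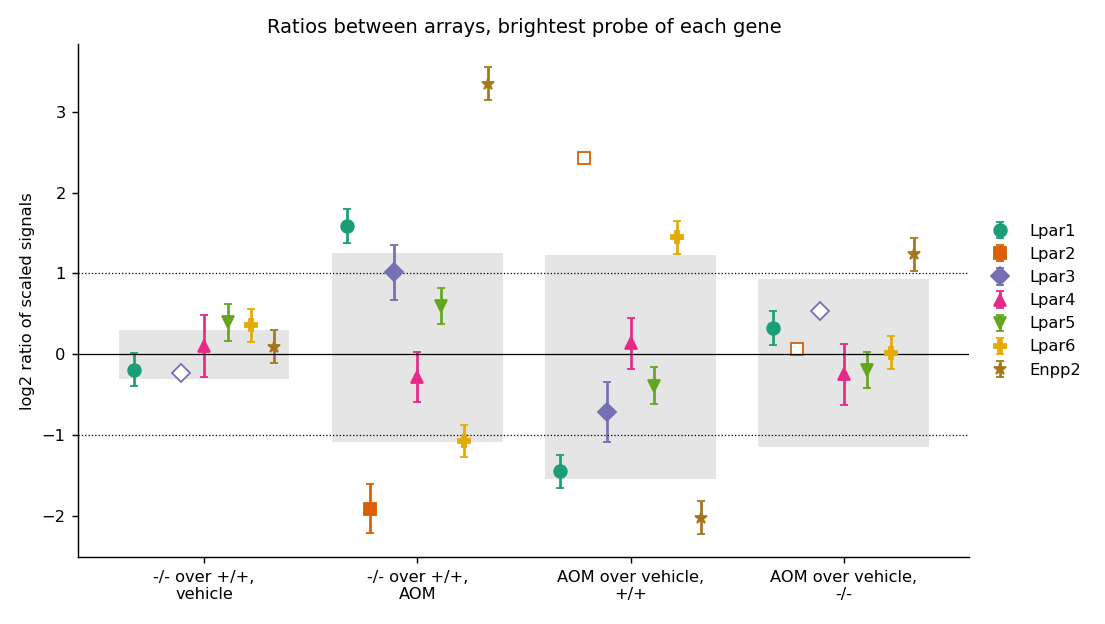
The log2 ratio of scaled signals (y axis) for the brightest probe of each gene in the 4 comparisons between arrays, with the propagated error of Feature Extraction as bars and open symbols where 1 array was not well above background, so that the ratio is a bound. Grey boxes span the 10th to 90th percentile of all genes well above background on both arrays, and dotted lines mark 2-fold. Enpp2 reaches 3.35 between the genotypes after AOM, and no gene passes 2-fold with vehicle.

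Enpp2, the source of most extracellular LPA, showed the largest measured ratio of the 7 genes. With vehicle its scaled signal was 1.18 ± 0.12 (error of Feature Extraction) on the Pla2g3+/+ array and 1.25 ± 0.13 on that labeled Pla2g3-/-. After AOM these were 0.290 ± 0.029 and 2.96 ± 0.30. The vehicle arrays thus lay close together, with the Pla2g3+/+ AOM array below them and the array labeled Pla2g3-/- after AOM above them. After AOM the signal was 10.2-fold higher on the array labeled Pla2g3-/- (log2 ratio 3.35 ± 0.20). In Pla2g3+/+ it was 4.06-fold lower after AOM than with vehicle, and in the pools labeled Pla2g3-/- it was 2.36-fold higher. Without scaling between arrays the log2 ratio in Pla2g3+/+ went from -2.02 to -1.003 and that in the pools labeled Pla2g3-/- from 1.24 to 2.08, with the directions kept. In the order of the 4 arrays, only the vehicle arrays differed by less than 2 errors.

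Lpar1, a receptor of fibroblasts and smooth muscle among other cells, had with vehicle a scaled signal of 0.255 ± 0.026 (Pla2g3+/+) and 0.224 ± 0.023 (labeled Pla2g3-/-). After AOM the values were 0.0934 ± 0.0098 and 0.280 ± 0.028. The Pla2g3+/+ AOM array was the low one, and the other 3 arrays did not differ from their neighbors by more than 2 errors. The ratio was 3.00-fold between the genotypes after AOM, and in Pla2g3+/+ the signal was 2.74-fold lower after AOM than with vehicle. In the pools labeled Pla2g3-/- AOM over vehicle was 1.25-fold, within 2 errors. With normexp background correction and quantile normalization, the log2 ratio went from 1.58 to 0.95 between the genotypes and from -1.45 to -0.85 for AOM in Pla2g3+/+, and without scaling the latter was -0.43, so that none of these passed 2-fold. Without scaling the log2 ratio of AOM over vehicle in the pools labeled Pla2g3-/- went from 0.32 to 1.17, past 2-fold.

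Several marker lists were, like Enpp2 and Lpar1, lowest on the Pla2g3+/+ AOM array. The summed scaled signal of the 10 smooth muscle markers was 519 and 544 with vehicle and 31.6 and 499.8 after AOM, in the order Pla2g3+/+ and labeled Pla2g3-/-. On the Pla2g3+/+ AOM array 9 of the 10 were well above background and Lmod1 was not. The 7 adipocyte markers summed to 18.6 and 38.7 with vehicle and 2.27 and 5.57 after AOM, and Adipoq, Plin1 and Lep were not well above background on the Pla2g3+/+ AOM array. In the pools labeled Pla2g3-/- all 6 adipocyte markers with a value were over 2-fold lower after AOM, the direction opposite to that of Enpp2. The 7 markers of enteric neurons and glia summed to 2.64 and 2.83 with vehicle and 0.786 and 1.62 after AOM, with Gfap not well above background on the Pla2g3+/+ AOM array. The mature colonocyte and goblet cell lists were also lowest on the Pla2g3+/+ AOM array. The 8 mature colonocyte markers summed to 679 and 712 with vehicle and 68.3 and 376 after AOM, and 7 of them were over 2-fold higher on the array labeled Pla2g3-/- after AOM, with Slc9a3 lower. The 7 goblet cell markers summed to 1494 and 1409 with vehicle and 116 and 584 after AOM, and all 7 were over 2-fold higher there. In the pools labeled Pla2g3-/-, Enpp2 was higher after AOM, whereas the sum of every list named so far was lower, if only slightly for smooth muscle. The log2 ratios of the sums were -0.12 (smooth muscle), -0.81 (neurons and glia), -0.92 (mature colonocytes), -1.27 (goblet cells) and -2.80 (adipocytes). Single markers did not all follow these sums. Of the smooth muscle markers 1 was over 2-fold higher there, Myh11 (3.69-fold), 0 were lower and 9 lay within 2-fold. Of the mature colonocyte markers 1 was higher, Slc26a3 (2.63-fold), 2 were lower and 5 lay within. The goblet cell list had 0 higher and 5 lower, and that of neurons and glia 0 higher and 3 lower. The 9 fibroblast markers were split. They summed to 41.0 and 46.0 with vehicle and 120.6 and 87.8 after AOM, and 5 of them, the collagens Col1a1, Col1a2 and Col3a1 with Pdgfra and Pdpn, were over 2-fold higher after AOM in Pla2g3+/+. Dcn and Thy1 were also higher there, within 2-fold (log2 ratios 0.79 and 0.80). Fap, with 0.977 and 1.04 with vehicle and 0.265 and 0.725 after AOM, was lowest on the Pla2g3+/+ AOM array. So was Lum, with 3.13 and 4.11 and then 2.25 and 6.91. For AOM in Pla2g3+/+ only Fap was over 2-fold lower (-1.88), whereas Lum stayed within 2-fold (-0.48). The part of any of these lists in the Enpp2 and Lpar1 ratios was not tested. In pooled tissue RNA, fewer cells of a type and less RNA per cell cannot be told apart.

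Lpar2, which couples to Gi, Gq and G12/13 and is known from intestinal epithelium, was well above background after AOM only. On the brighter probe, the scaled signal was 0.0104 ± 0.0042 and 0.0056 ± 0.0056 on the vehicle arrays, neither well above background, then after AOM 0.0895 ± 0.0094 on the Pla2g3+/+ array and 0.0238 ± 0.0042 on that labeled Pla2g3-/-. The Pla2g3+/+ AOM array stood above the rest. It was 3.76-fold higher than the array labeled Pla2g3-/- after AOM (log2 ratio of labeled knockout over wild-type -1.91 ± 0.30) and at least 5.41-fold higher than the Pla2g3+/+ vehicle array. In the pools labeled Pla2g3-/- the signal after AOM was at least 1.05-fold higher than with vehicle, and as measured, with the vehicle signal not well above background, 4.23-fold. On the second probe only the Pla2g3+/+ AOM array was well above background, at an intensity of 17.9 where the lowest signal well above background on that array was 16.4, so this probe gave no fold for any comparison. With normexp background correction and quantile normalization, which compresses dim signals, the log2 ratio of the brighter probe was -0.66 between the genotypes after AOM and 0.82 for AOM in Pla2g3+/+, both short of 2-fold.

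Lpar6, a receptor coupled to G13 and lying within the span of Rb1 in the RefSeq annotation, was well above background on every array by both of its probes. On probe A_51_P234728 the scaled signal was 2.97 ± 0.30 and 3.80 ± 0.38 with vehicle and 8.11 ± 0.81 and 3.85 ± 0.39 after AOM, in the order Pla2g3+/+ and labeled Pla2g3-/-. On probe A_55_P1967069 it was 2.95 ± 0.30 and 2.96 ± 0.30 with vehicle and 6.06 ± 0.61 and 2.83 ± 0.28 after AOM. Both probes set the Pla2g3+/+ AOM array apart, and the other 3 arrays did not differ from their neighbors by more than 2 errors. In Pla2g3+/+ AOM over vehicle was 2.73-fold and 2.05-fold on the probes in this order. After AOM the array labeled Pla2g3-/- was 2.11-fold and 2.14-fold lower. The single Rb1 probe used here ran differently, with a log2 ratio of -0.36 for AOM over vehicle in Pla2g3+/+ and 0.75 between the genotypes after AOM.

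Other marker lists differed between the arrays beside Lpar2 and Lpar6. Of 11 Wnt targets of colon tumors, 10 were over 2-fold higher after AOM in Pla2g3+/+ and 10 were past 2-fold in the opposite direction when the AOM array labeled Pla2g3-/- was set against that of Pla2g3+/+, with summed scaled signals of 25.2 and 27.2 with vehicle and 80.3 and 28.4 after AOM. Of these markers Prox1 was not well above background on the vehicle arrays, and Sp5 and Prox1 were not on the array labeled Pla2g3-/- after AOM. The 6 mast cell markers summed to 1.70 and 1.46 with vehicle and 18.2 and 1.20 after AOM, with Cpa3 and Fcer1a not well above background on the vehicle arrays. In Pla2g3+/+ 5 of the 6 were over 2-fold higher after AOM, whereas Kit, which made up most of the vehicle sums, was 3.16-fold lower. For AOM in the other genotype 3 were higher and 2 lower, with Cma1 4.59-fold higher. Of the 7 neutrophil markers 4 were over 2-fold higher after AOM in Pla2g3+/+, led by S100a8 (196-fold) and S100a9 (160-fold), and after AOM 4 were lower by more than 2-fold for the label Pla2g3-/-, with Ly6g higher. Their sums were 54.7 and 53.6 with vehicle and 92.8 and 61.6 after AOM, most of each vehicle sum coming from Csf3r. The 7 macrophage markers summed to 9.22 and 11.4 with vehicle and 18.2 and 8.47 after AOM, with Cd163 not well above background on any array. The part of these lists in the Lpar2 and Lpar6 ratios was not tested.

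The other 3 receptors were dim. Lpar3, which couples to Gq and Gi, had a scaled signal of 0.0322 ± 0.0055 and 0.0273 ± 0.0066 with vehicle, the latter not well above background, and 0.0196 ± 0.0038 and 0.0397 ± 0.0055 after AOM. Its ratio between the genotypes after AOM, 2.02-fold, lay at the threshold and fell short of it without scaling (log2 ratio 0.85), with quantile normalization (0.94) and with normexp (0.28). Lpar5, found on immune cells and epithelium, had 0.0740 ± 0.0083 and 0.0976 ± 0.0110 with vehicle and 0.0566 ± 0.0063 and 0.0854 ± 0.0091 after AOM, and its ratio between the genotypes after AOM was 1.51-fold. Lpar4 had 0.0292 ± 0.0050 and 0.0313 ± 0.0064 with vehicle and 0.0320 ± 0.0044 and 0.0264 ± 0.0044 after AOM, a range of 1.22-fold over the 4 arrays, which was within its error. The ratio between the genotypes after AOM exceeded 2 errors for Lpar3 (log2 ratio 1.02 ± 0.34) and Lpar5 (0.59 ± 0.22), although for each of these 3 genes no array differed by more than 2 errors from its neighbor in order.

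The direction of AOM over vehicle depended on scaling for 3 dim genes, since the AOM arrays were brighter. Without scaling between arrays the median of all genes moved by 1.04 in Pla2g3+/+ and by 0.84 in the pools labeled Pla2g3-/- on the log2 scale. The log2 ratio of Lpar5 then went from -0.39 to 0.63 in Pla2g3+/+ and from -0.19 to 0.65 in the pools labeled Pla2g3-/-, that of Lpar3 from -0.71 to 0.30 in Pla2g3+/+, and that of Lpar4 from -0.25 to 0.60 in the pools labeled Pla2g3-/-. Lpar4 in Pla2g3+/+ went from 0.14 to 1.16 and Lpar3 in the pools labeled Pla2g3-/- from 0.54 to 1.38, both past 2-fold without scaling. The Lpar3 values in the pools labeled Pla2g3-/- are as measured, with the vehicle signal of that label not well above background. Among all genes past 2-fold for AOM in Pla2g3+/+, 2612 were higher and 3870 lower with scaling, 7750 and 1231 without it, and 1766 and 1712 with normexp background correction and quantile normalization. In the pools labeled Pla2g3-/- these numbers were 1598 and 2482, 6395 and 625, and 887 and 864.

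The only test that the 4 arrays allowed was an additive limma fit of treatment and genotype over all genes, with 1 residual degree of freedom. It asks for effects that are alike on both levels of the other factor. At an adjusted p of 0.05 it called 0 of 17876 genes for treatment (0.0%) and 0 for genotype (0.0%). At an unadjusted p under 0.05 there were 2408 genes for treatment and 215 for genotype. Lpar2 was the member with the smallest p, with an effect of treatment of 2.59 ± 0.43 (SE, log2 scale, limma adjusted p = 0.368), although its values on the vehicle arrays were not well above background. For genotype its effect was -1.40 ± 0.43 (limma adjusted p = 0.994). Enpp2 had a genotype effect of 1.72 ± 1.02 (limma adjusted p = 0.994) and a treatment effect of -0.39 ± 1.02 (limma adjusted p = 0.846), in which the ratios of opposite sign in the genotypes are averaged. Adjusted p for the other 5 genes ranged from 0.511 to 0.935 for treatment and was 0.994 for genotype.

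The lists of other genes around LPA were read the same way, against the share of all genes past 2-fold. That share was 15.1% higher and 12.9% lower between the genotypes after AOM, with a median log2 ratio of 0.03, and 15.1% higher and 22.4% lower for AOM in Pla2g3+/+, with a median of -0.17. Of 18 genes of LPA production, which include Enpp2 and Pla2g3, 16 had a value. After AOM, 7 were over 2-fold higher on the array labeled Pla2g3-/- and 3 were lower, with a median log2 ratio of 0.63. The higher ones were led by Enpp2 (3.35), Pla2g3 (2.59), Pla2g5 (1.72) and Pla2g10 (1.62), the last 3 encoding secreted phospholipases A2. The lower ones were Pla2g2a (-4.78), another secreted phospholipase A2, Gdpd3 (-3.09), a lysophospholipase D, and Pla1a (-1.81), a phosphatidylserine-specific phospholipase A1. In Pla2g3+/+ the 3 genes over 2-fold higher after AOM were Pla2g2a, Gdpd3 and Pla1a, at 4.53, 3.19 and 3.15, and 7 genes were lower, led by Pla2g10 (-2.23), Pla2g5 (-2.21), Enpp2 (-2.02) and Liph (-1.68), the last a phospholipase A1 that makes LPA from phosphatidic acid. The median there was -0.39. In the pools labeled Pla2g3-/- 4 were higher and 3 lower after AOM, against 9.68% and 15.0% of all genes. With vehicle 1 of the 16 production genes with a value was past 2-fold, where 3.24% of all genes were. This was Gdpd3 (log2 ratio 3.84), with intensities of 90.6 and 1310 with vehicle and 1678 and 176 after AOM. Its high arrays were thus the vehicle array labeled Pla2g3-/- and the Pla2g3+/+ AOM array.

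Of 13 genes listed around LPA breakdown and acylation, 12 had a value between the genotypes after AOM, with a median log2 ratio of 0.29. On the array labeled Pla2g3-/- 0 were over 2-fold lower (12.9% of all genes) and 3 were higher (15.1%). These were the LPA acyltransferases Agpat4 (2.62) and Agpat1 (1.18) and Lclat1 (1.41), a lysophospholipid acyltransferase. In Pla2g3+/+, AOM over vehicle gave 1 higher, the lipid phosphate phosphatase Plpp3 (1.11), and 4 lower, Agpat4 (-2.66), Plppr4 (at most -1.17, a bound), Plpp6 (-1.12) and Plpp2 (-1.09). Of 16 genes of the G proteins, guanine nucleotide exchange factors, small GTPases and kinases to which the receptors couple, 3 were over 2-fold higher on the array labeled Pla2g3-/- after AOM, namely Gna11 (1.22), Arhgef11 (1.20) and Rhoc (1.09), and 0 were lower. The 3 of 16 higher genes are near the 15.1% of all genes. In Pla2g3+/+ AOM over vehicle gave Arhgef12 (1.12) and Rock2 (1.11) as higher and Gna11 (-1.40) and Rhoc (-1.11) as lower. With vehicle, 0 genes of these lists passed 2-fold between the genotypes, where only 3.24% of all genes did.

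Among 11 other receptors for lysophospholipids and S1P, 7 had a value after AOM between the genotypes. Of these, 1 was over 2-fold higher on the array labeled Pla2g3-/-, S1pr5 (at least 1.38). The 4 lower ones were P2ry10 (-2.66), Gpr132 (-2.38), S1pr2 (-1.54) and S1pr1 (-1.21), of which P2ry10 and Gpr132 are known from leukocytes and S1pr1 from lymphocytes and endothelium. In Pla2g3+/+ AOM over vehicle gave Gpr132 (1.76), S1pr2 (1.71) and S1pr1 (1.39) as higher and Gpr174 (at most -1.78), Gpr119 (at most -1.44) and S1pr3 (-1.12) as lower. The 5 markers of B and plasma cells were, after AOM, all more than 2-fold lower for the label Pla2g3-/- than for Pla2g3+/+, with summed scaled signals of 68.8 and 66.7 with vehicle and 38.0 and 4.96 after AOM, and Ms4a1 was not well above background there. Their part in the receptor ratios was not tested.

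**Figure D4:**
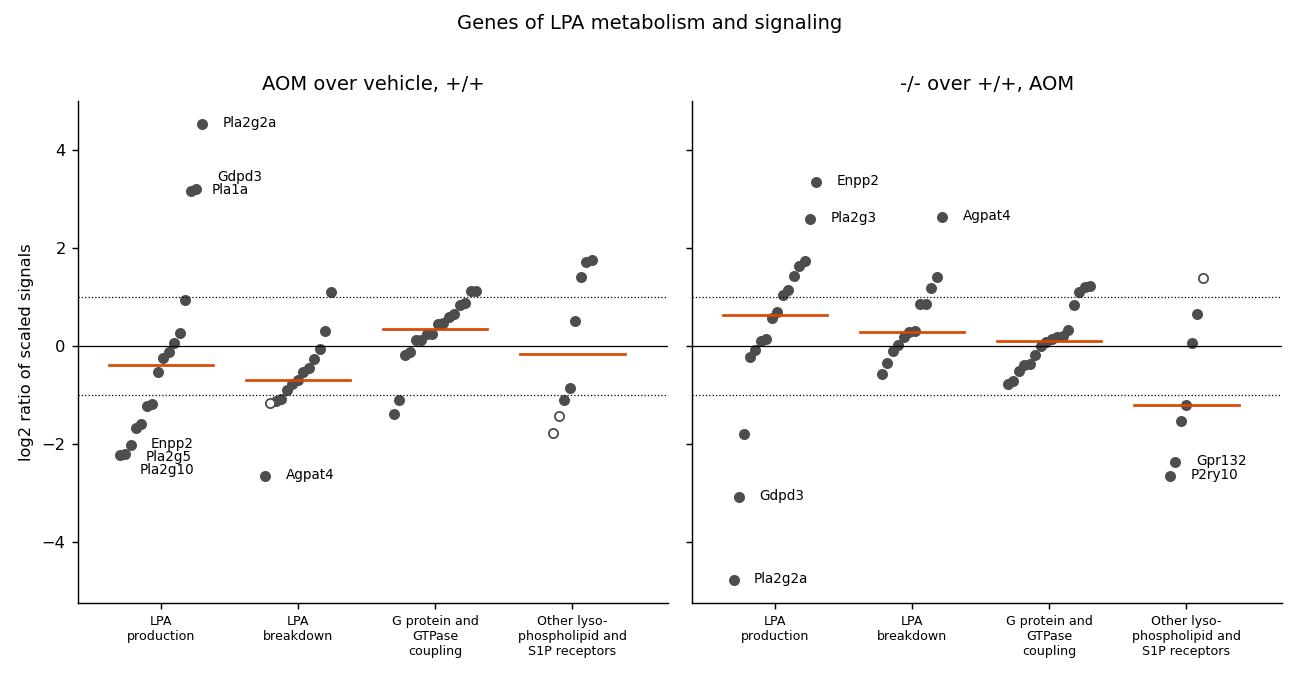
The log2 ratio of scaled signals (y axis) of the genes of 4 lists around LPA for AOM over vehicle in Pla2g3+/+ (left) and for the labeled genotypes after AOM (right), 1 point per gene with open points for bounds, an orange line for the list's median and dotted lines at 2-fold. Pla2g2a lies at 4.53 on the left and -4.78 on the right, and Enpp2 at -2.02 and 3.35. The panels share the Pla2g3+/+ AOM array.

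Finally, the genes whose profile over the 4 arrays was closest to that of a member were sought among the 14786 genes well above background on all of them, for the 3 members that were detected on all 4 arrays and had a log2 range of at least 1. Closeness is the root mean square difference between the log2 values after subtracting each gene's mean. For Enpp2 these were Tgfbr3 (0.049), encoding a co-receptor for transforming growth factor beta, Galnt15 (0.058), a glycosyltransferase, and Eno3 (0.072), the muscle form of enolase, and 35 genes (0.237%) lay within 0.25. For Lpar1 they were Dcaf12l1 (0.024), Klf9 (0.025), encoding a transcription factor, and Stxbp6 (0.033), and for Lpar6 they were Zfp711 (0.051), Stac (0.053) and Pld3 (0.054). Within 0.25 there were 506 genes (3.42%) for Lpar1 and 695 (4.70%) for Lpar6. With 4 arrays such a match is a description only.

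**Figure D5:**
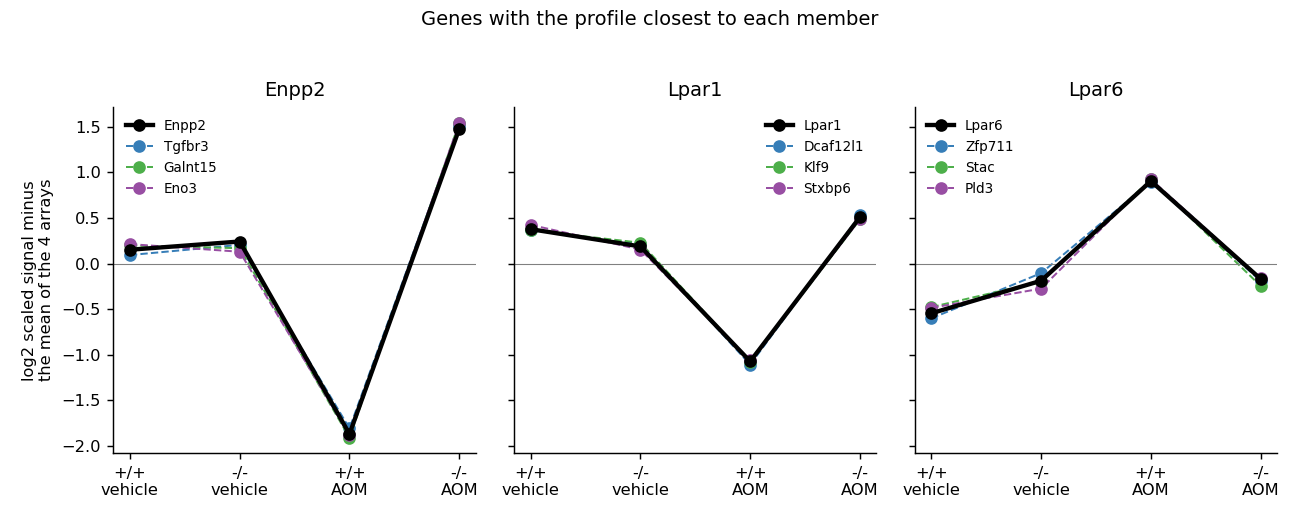
Log2 scaled signal minus the gene's mean over the 4 arrays (y axis) for Enpp2, Lpar1 and Lpar6 (black) and the 3 genes closest to each (dashed). The Enpp2 group is lowest on the Pla2g3+/+ AOM array (-1.87 for Enpp2) and highest on the array labeled Pla2g3-/- after AOM (1.48).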

How the data were processed

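One-color (Cy3) Whole Mouse Genome arrays were hybridized on 1 slide with 4 pooled colon RNAs, 1 per group, of which 27.7 ng each were labeled. Per the file headers, Feature Extraction 11.5.1.1 subtracted background from the intensity of each spot, detrended it within the array and put a surrogate in place of the lowest signals. The deposited p-value of a spot tests its equality with background, and spots were called detected by the deposited flag well above background. The authors also deposited a ratio per spot, its intensity over the 75th percentile of the array. Within each array this ratio was the intensity over 1 constant. The constants were 646 and 650 on the vehicle arrays and 1309 and 1169 on the AOM arrays, in the order Pla2g3+/+ and labeled Pla2g3-/-. They lay close to the percentiles computed here, which were 647, 652, 1312 and 1171.

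Controls and outlier spots were removed, log2 intensities of replicate spots were averaged, and the log2 of the 75th percentile was subtracted, over 39429 probes. Of these, 31371 were named through a RefSeq table and stood for 22370 genes, each represented by its brightest probe. A signal not well above background was replaced by the lowest signal that was (10.7, 14.8, 16.4 and 17.1 on the arrays for Pla2g3+/+ and labeled Pla2g3-/- with vehicle and the same pair after AOM) unless its own was higher, and the ratio was written as a bound. No fold was given where both arrays were below background. None was given either where the dim array, after this replacement, reached or passed the scaled signal of the detected one. The threshold was 2-fold. Precision is limited by the number of arrays, and with 1 array per group no single comparison was tested. An additive model of both factors was fitted to all 4 arrays with limma 3.58.1 (R 4.3.3), with Benjamini-Hochberg adjustment, on genes well above background on at least 1 array. Other steps used Python 3.11.15, pandas 2.3.3, numpy 2.4.6 and matplotlib 3.10.9.

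The genes, the 4 lists around LPA and the 16 marker lists were chosen with earlier results of these data known. A few genes of these lists are not reported here and were left out of their counts and sums. All probes of the 7 genes are given. From each list around LPA, genes past 2-fold between the genotypes after AOM or for AOM in Pla2g3+/+ are named, at most 4 in each direction, with Pla2g3 and the 3 genes closest in profile to each member detected on all arrays with a log2 range of at least 1. Marker genes that were not well above background, Gdpd3 with vehicle and Rb1 were named after their values were seen. Alternatives were other scalings, normexp with an offset of 50, other filters on dim probes, other rules for several probes, thresholds of 1.5-fold and 4-fold, the deposited table and an intensity trend in limma.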

Additional observations from a re-analysis of the deposited data

Results flagged for a closer look

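The Enpp2 signal differed between AOM and vehicle in opposite directions in the labeled genotypes. The log2 ratio of AOM over vehicle was -2.02 in Pla2g3+/+ and 1.24 in the pools labeled Pla2g3-/-, a difference of 3.26. It stood out because the single array of each treatment moved one way in one genotype and the other way in the other, in both cases past 2-fold. With 1 array per group this difference was not tested. Marker genes of other cell types also differed between these pools, and their part in it was not tested. Outlying samples within a group could not be looked for, since no group had more than 1 array.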

How the results depend on the processing

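The counts of the 7 genes past 2-fold moved under 6 settings. The share of all genes past the same threshold follows each count. At a 4-fold threshold the counts were 1 higher (5.66%) and 0 lower (4.97%) between the genotypes after AOM (3 and 2 as reported), 1 higher (4.98%) and 1 lower (7.23%) for AOM in Pla2g3+/+ (2 and 2) and 0 higher (1.41%) for AOM in the pools labeled Pla2g3-/- (1). With normexp background correction and quantile normalization they were 1 (8.77%) and 1 (7.49%) between the genotypes after AOM and 1 (10.2%) and 1 (9.85%) for AOM in Pla2g3+/+. With the dimmest probe of a gene, 1 was lower between the genotypes after AOM (13.0%) and 1 higher for AOM in Pla2g3+/+ (15.9%), and when detection on both arrays was required the latter was also 1 (13.8%). Without scaling, 1 was lower for AOM in Pla2g3+/+ (7.17%) and 3 were higher for AOM in the pools labeled Pla2g3-/- (38.1%), and with all dim probes used as measured the last was 2 (10.0%). The cause was not tested. The other 91 values of the main results kept within 1.5 times the reported count, including 0 calls by limma under each alternative, with a smallest adjusted p of 0.274 for treatment and 0.850 for genotype. Under the alternatives other than the thresholds, the log2 ratio of Enpp2 lay between -2.07 and -1.003 for AOM in Pla2g3+/+, between 1.22 and 2.08 for AOM in the pools labeled Pla2g3-/- and between 2.96 and 3.47 between the genotypes after AOM.

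Among all genes with vehicle, 315 were higher and 216 lower as reported, 111 and 84 with normexp and quantile normalization, and 671 and 710 without a filter on dim probes. No paired analysis was possible because each group had 1 array and the labels gave no replicate numbers, and for the same reason no replicate could be left out. Lpar2 and Lpar3 were limited by signal over background, with intensities of at most 117 and 46.5.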
